A study of Mus musculus with 2 samples.

Results

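Interleukin-17 signalling in mouse pancreatic tumours was described through 6 genes of the 32285 in the count tables, chosen by symbol: the cytokines Il17a and Il17f, the receptor subunits Il17ra and Il17rc, the receptor Il23r and the cytokine subunit Il23a. They were picked with the high Il17a of the treated library already known, so every difference between the libraries given for them is a description of 2 libraries. Tumours of KPPC mice, 6 weeks old, were compared after 14 days of vehicle or of takinib at 50 mg/kg. Takinib is an inhibitor of the kinase TAK1, the product of Map3k7, which relays signals from several cytokine receptors to NF-kappaB. KPPC mice are a genetic model in which the pancreatic epithelium is engineered to form tumours; the labels name the model and not its alleles, promoter or controls, and both groups share it. Each group had 1 single-cell RNA library, made from enzyme-digested tumour (collagenase A with DNase-I), and the number of mice behind a library was not stated.

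IL-17A and IL-17F are related cytokines made mainly by lymphocytes of the type 17 programme, which include T helper 17 cells, gamma-delta T cells and innate lymphoid cells. They act on a receptor formed by IL-17RA, which is widely expressed and strong on blood cells, and IL-17RC, which is the more restricted subunit of epithelial and stromal cells; the adaptor Act1, encoded by Traf3ip2, couples it to TRAF6, TAK1 and NF-kappaB, and the receiving cells then make neutrophil-attracting chemokines and antimicrobial proteins. IL-23, a dimer of the p19 subunit (Il23a) and the p40 subunit (Il12b), acts on type 17 lymphocytes through IL-23R and IL-12Rb1 and is made mainly by myeloid cells.

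Il17a lies at chr1:20730905-20734496 on the plus strand and Il17f at chr1:20777146-20790617 on the minus strand, so that they are neighbours on chromosome 1 (GRCm38). Il23r is at chr6:67422932-67491855 on the minus strand, Il17rc at chr6:113471427-113483140 and Il17ra at chr6:120463247-120487559, both on the plus strand, and Il23a at chr10:128296139-128298752 on the minus strand. All 6 are annotated as protein coding. The 3 lymphocyte genes of the group, Il17a, Il17f and Il23r, are shown by the 200 bases before their RefSeq start site (RefSeq, GRCm38.p6), because these genes were read in the same gamma-delta T-like cells and each window holds the letters AGGTCA on one or the other strand. AGGTCA is a half-site known to be bound by many nuclear receptors. The windows are chr1:20730705-20730904 for Il17a, chr1:20784271-20784470 for Il17f and chr6:67491856-67492055 for Il23r; none overlaps an annotated exon, and the Il17f window lies within the gene's longer annotated span. They are written 5' to 3' on the gene's strand, with AGGTCA or its reverse complement TGACCT in capitals:
Il17a upstream window: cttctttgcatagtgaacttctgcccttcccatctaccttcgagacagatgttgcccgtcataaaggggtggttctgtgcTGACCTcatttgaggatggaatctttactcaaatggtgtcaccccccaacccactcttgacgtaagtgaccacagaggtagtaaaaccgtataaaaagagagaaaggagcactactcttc
Il17f upstream window: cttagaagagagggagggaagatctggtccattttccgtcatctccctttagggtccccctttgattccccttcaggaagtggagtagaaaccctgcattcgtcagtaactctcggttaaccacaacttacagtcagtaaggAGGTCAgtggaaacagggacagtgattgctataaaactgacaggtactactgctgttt
Il23r upstream window: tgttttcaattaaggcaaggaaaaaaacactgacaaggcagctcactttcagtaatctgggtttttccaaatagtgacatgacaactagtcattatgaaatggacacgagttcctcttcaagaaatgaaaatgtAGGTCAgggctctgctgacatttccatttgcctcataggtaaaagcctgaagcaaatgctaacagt
The match began at base -120 from the start site in Il17a, at -58 in Il17f and at -66 in Il23r, and the one of Il17a is on the opposite strand. The same 6 letters, searched on both strands, occur in 3735 of 32851 windows of this length in the RefSeq promoter table (11.4%). Of the 6 genes, 4 had an entry in that table, and the Il17rc window is not shown because AGGTCA was not found in it. A match describes letters and not a bound site.

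Both libraries were read as raw UMI counts, and a UMI is a molecule counted once. After removing barcodes with fewer than 1000 UMIs or 500 genes or more than 20% mitochondrial UMIs, and called doublets, 9558 vehicle cells with 42000538 UMIs and 25183 takinib cells with 119726977 UMIs remained, and 400 cell barcodes occurred in both libraries before doublets were removed. Cells were clustered jointly without the 6 genes and called by marker genes, as in "T-like". The libraries differed in much besides treatment: the vehicle table lists 704261 barcodes and the takinib table only barcodes of at least 500 UMIs, the headers show Cell Ranger 4 in the vehicle file and 6.1.1 in the takinib file, neutrophil-like cells numbered 263 against 11636, and the vehicle library held 1075 cells with Xist and no Y-linked UMI, 3087 with the reverse and 168 with both, while 0 takinib cells had a Y-linked UMI. Treatment cannot be told apart from these differences or from the mouse. Clusters with genes of other sites were present, such as macrophage-like cluster 2 with Car4, Chil3, Ear2 and Marco (777 vehicle and 1502 takinib cells) and epithelial-like cluster 20 with Spink4 and Muc2 (117 and 81 cells), and their source was not tested. Levels are counts per 1000000 UMIs (CPM) of the summed cells of a class, the interval in brackets is the 95% exact interval, which covers counting error only, and with 1 library a group there is no test between treatments. Levels of different genes are not compared with each other. Over all kept cells, 6 of 6 genes had at least 20 counts; 4 were at least 2-fold higher in takinib (Il17a, Il17f, Il23r and Il23a) and 1 at least 2-fold lower (Il17rc), beside 9.12% and 20.1% of 17893 genes, which is read no further since these differences were known when the genes were chosen. The plot of all 6 genes by class shows which cells carried each.

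**Figure D1:**
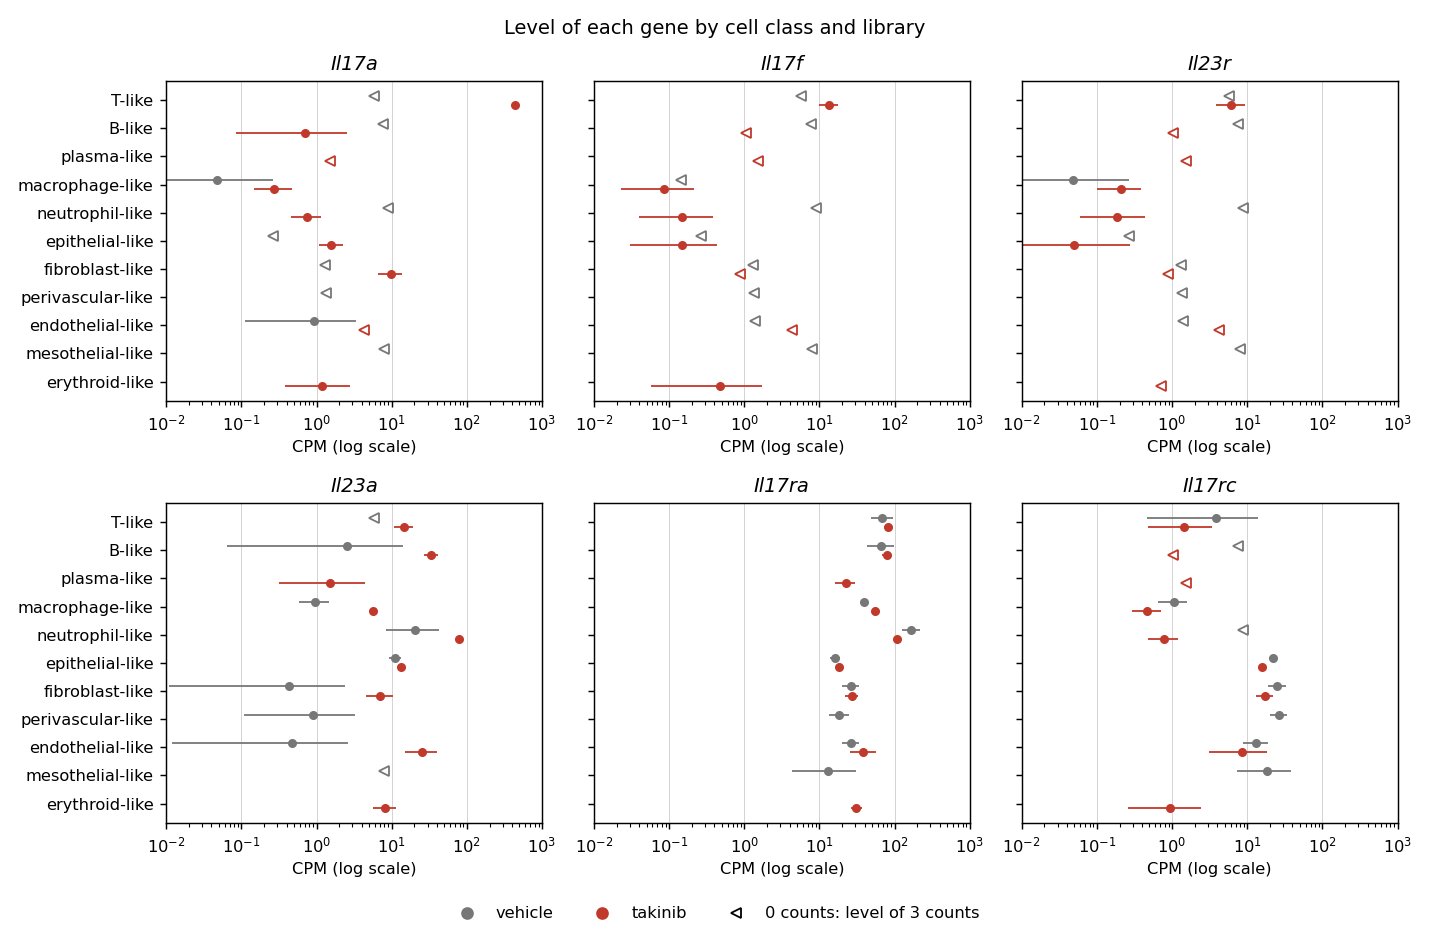
Level of each of the 6 genes (CPM) in each cell class of at least 50 cells, vehicle in grey and takinib in red, with exact Poisson 95% intervals that cover counting error only. Il17a, Il17f and Il23r are highest in T-like cells of takinib, where Il17a is 438 CPM; Il23a is highest in neutrophil-like cells, at 79.1 CPM in takinib; and Il17rc is found in epithelial-like, fibroblast-like, perivascular-like, mesothelial-like and endothelial-like cells.

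Il17a, the signature cytokine of the type 17 programme, came almost wholly from takinib T-like cells. The vehicle library held 3 Il17a UMIs in 2 of 9558 cells, 0.0714 CPM, and the takinib library 1611 UMIs in 104 of 25183 cells, 13.5 CPM, a ratio of 188 [64.3, 914]. T-like cells were 4.99% of takinib cells and held 93.2% of its Il17a UMIs. In vehicle T-like cells 0 of 252 cells had an Il17a UMI, which allows a share of cells with a UMI of up to 1.19% at this depth, and in takinib 63 of 1256 did, a share of 5.02% [3.88, 6.37] and a level of 438 CPM [416, 461]. Against the limit of 3 counts for the vehicle class, the takinib level was at least 76.5-fold higher. Median depth per T-like cell was 1418.5 UMIs in vehicle and 1890 in takinib; at 1000 UMIs per cell the expected share in takinib was 3.74%. B-like cells, which should lack the gene, had an Il17a UMI in 2 of 1243 takinib cells (0.161%) at a median of 1821 UMIs. The neutrophil gene S100a8 was at 237 and 8646 CPM in T-like cells and at 401 and 22687 in B-like cells; its part in the result was not tested.

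The Il17a molecules were concentrated in few cells. Of the 104 takinib cells with the gene, 51 had a single UMI, and 29 cells with at least 10 UMIs held 90.4% of all of them. The highest cells had 181 and 180 UMIs, and the 5 highest held 43.1%. Of the 29 cells, 27 were T-like, 22 were in lymphoid cluster 7, 29 had a UMI of a T-cell marker and 28 a UMI of a gamma-delta gene, such as the receptor chain Trdc. Il17f was read in 9 of these 29 cells and Il23r in 8. Outside the T-like class the counts rested on single cells: all 33 Il17a UMIs of fibroblast-like cells came from 1 cell of 23640 UMIs, which also had 20 UMIs of T-cell markers and 17 of gamma-delta genes, and 25 of the 32 in epithelial-like cells came from 1 cell of 14985 UMIs with 17 UMIs of T-cell markers. The 20 Il17a UMIs of neutrophil-like cells lay in 19 of 11636 cells. Both vehicle cells with Il17a, called endothelial-like and macrophage-like, also had a UMI of a T-cell marker. The plot of Il17a UMIs per cell shows the few high cells and where they lie.

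**Figure D2:**
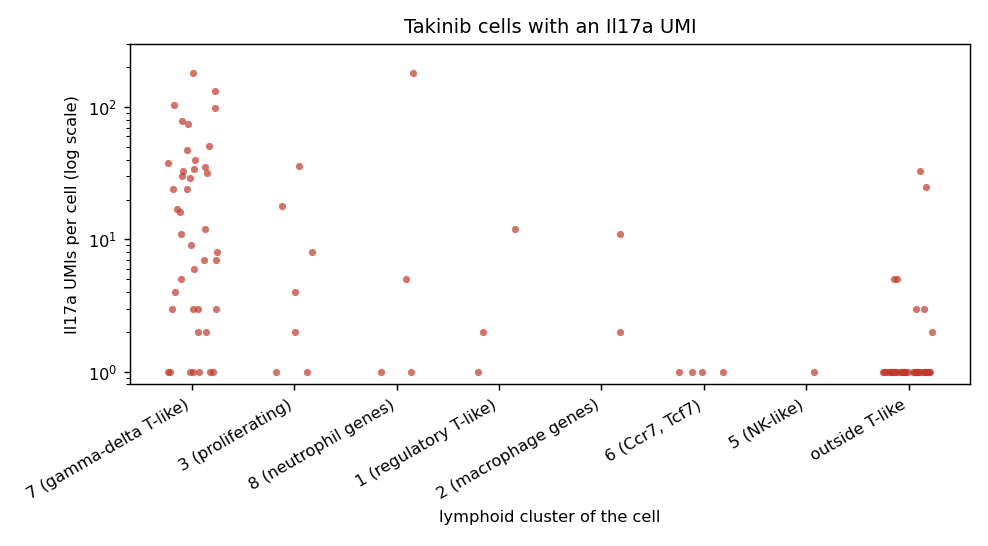
Il17a UMIs in each takinib cell that had at least 1 (log scale), by the lymphoid cluster of the cell, with cells of other classes in the last column; points are spread sideways for visibility. Cluster 7 holds 42 of the 104 cells and 22 of the 29 cells with 10 or more UMIs.

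T-like cells, clustered again among themselves, gave a gamma-delta T-like cluster of 65 takinib cells and 0 vehicle cells (cluster 7). It held 1211 of the Il17a UMIs, at 5825 CPM, and Il17a was read in 42 of its 65 cells, 64.6% [51.8, 76.1]. Its genes were those of gamma-delta cells of the Vgamma6 type: Trdc was read in 57 of 65 cells, Trdv4, a variable segment of the delta chain, in 56, Cd163l1, a scavenger receptor known from IL-17-making gamma-delta cells, in 59, and Tcrg-V6 in 39. Rora was read in 49 cells, Maf, a transcription factor of these cells, in 42 and the IL-1 receptor Il1r1 in 29, while Cd4, Cd8a, Foxp3 and the chemokine receptor Ccr6 had 0 counts. Il22, another type 17 cytokine, had 4 counts in 1 cell. The neutrophil genes S100a8 and S100a9 were at 5315 and 5627 CPM in the cluster. The clustering used Trdc and its like, so these genes define the cluster and are no finding of it, and with 0 vehicle cells it may be a feature of 1 library.

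The other takinib Il17a of T-like cells lay mostly in 1 cell. Lymphoid cluster 8, with neutrophil genes and 267 takinib cells, held 187 UMIs in 4 cells, of which 1 cell held 180. Cluster 3, of proliferating cells, held 70 UMIs in 7 of 23 takinib cells, with 10 Il17f and 4 Il23r counts. Regulatory T-like cluster 1 held 15 UMIs in 3 of 78 takinib cells, and cluster 4, led by Cd8 genes, held 0 in 235. The vehicle T-like cells were mostly cluster 0, with 171 vehicle and 8 takinib cells and 0 Il17a counts; in its vehicle cells Cd4 was at 134 and Cd8a at 151 CPM, and it is given no subset name here. The T-like class was thus made of different clusters in the 2 libraries, and its vehicle cells numbered 252.

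Il17f, which forms homodimers and a heterodimer with IL-17A, followed the same cells at lower counts. It had 0 UMIs in vehicle and 61 in 21 takinib cells, at least 7.13-fold higher over all kept cells. Takinib T-like cells held 46 of the 61, in 11 cells, at 13.4 CPM, against 0 in vehicle, at least 2.34-fold higher. In gamma-delta T-like cluster 7 there were 31 counts in 7 cells, and all 7 also had Il17a. Of the 104 Il17a cells, 12 had Il17f.

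Il23r, the receptor subunit through which type 17 lymphocytes sense IL-23, had 1 UMI in vehicle and 38 in 33 takinib cells, a ratio of 13.3 [2.25, 540]. This ratio depends on the cell filter: over all barcodes there were 15 vehicle and 42 takinib counts, 0.186 and 0.302 CPM, and 14 of the 15 vehicle counts lay in barcodes left out. T-like cells held 21 of the 38, in 18 cells, at 6.13 CPM, against 0 in vehicle, at least 1.07-fold higher, which is near the counting limit. In cluster 7 it was 72.1 CPM [40.4, 119], read in 13 of 65 cells, 9 of which had Il17a. Macrophage-like cells held 10 takinib counts and 1 vehicle count. The co-receptor Il12rb1 was 7.64 CPM in vehicle T-like cells and 7.88 in takinib (ratio 1.03), with 10 counts in 10 cells of cluster 7.

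In T-like cells, 5 of the 6 genes had at least 20 counts and 3 were at least 2-fold higher in takinib (Il17a, Il17f and Il23a), beside 9.45% of 9864 genes. Among 15 tested type 17 lymphocyte genes of 17 listed, 5 were at least 2-fold higher and 2 at least 2-fold lower (6.95% of all genes were lower), and the list's median log2 ratio was -0.03, beside -0.06 over all genes tested. Il1r1, a receptor for IL-1, went from 3.82 to 27.1 CPM, a ratio of 7.11 [1.91, 59.6], Cd163l1 from 15.3 to 101 CPM, a ratio of 6.63, and 5830411N06Rik had a ratio of 5.66 [0.954, 229] that rests on 1 vehicle count. Trdc had a ratio of 6.85. Ccr6, a homing receptor of many type 17 cells that B cells also carry, was lower, at 30.5 and 1.75 CPM (ratio 0.0573), and so was Ahr, a ligand-activated transcription factor, at 55.4 and 21 CPM (ratio 0.379).

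Il23a encodes the subunit that is particular to IL-23. Over all kept cells it was 3.71 CPM in vehicle and 24.7 in takinib, a ratio of 6.65 [5.66, 7.86], and it was carried by different cells in the 2 libraries. In vehicle, 119 of the 156 UMIs came from epithelial-like cluster 7, led by Cdkn2a and Hmga2, where it was 17 CPM, and this cluster was 17.9 CPM in takinib, a ratio of 1.05 [0.829, 1.33]. The whole epithelial-like class was 11 and 13.3 CPM, a ratio of 1.21 [0.975, 1.51]. In takinib, 2139 of 2957 UMIs came from neutrophil-like cells, with 1006 of 11636 cells having a UMI (8.65%). Neutrophil-like cells were at 79.1 CPM [75.7, 82.5] in takinib and at 20.7 in vehicle, which rests on 7 counts in 263 cells, a ratio of 3.82 [1.85, 9.51].

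Within takinib neutrophil-like cells Il23a was uneven. Cluster 15, led by Ccl4, Acod1, Cxcl2 and Ptgs2, genes of an inflammatory state, was at 154 CPM, against 57.5 in cluster 12, 34.8 in cluster 16, led by Stfa2 and Ly6g, and 33.5 in cluster 13. Cluster 14, with the immature granulocyte genes Camp, Elane and Mpo and no class name, was at 7.44 CPM. Cluster 12, led by Cxcr2 and Il1r2 and by the hormone genes Ppy and Pyy, was the neutrophil-like cluster with at least 50 cells of each library, 259 and 2376, and was at 21 and 57.5 CPM, a ratio of 2.74 [1.31, 6.89]. The order over these clusters was 15 highest, then 12. The plot of Il23a by cluster shows the vehicle and takinib carriers side by side.

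**Figure D3:**
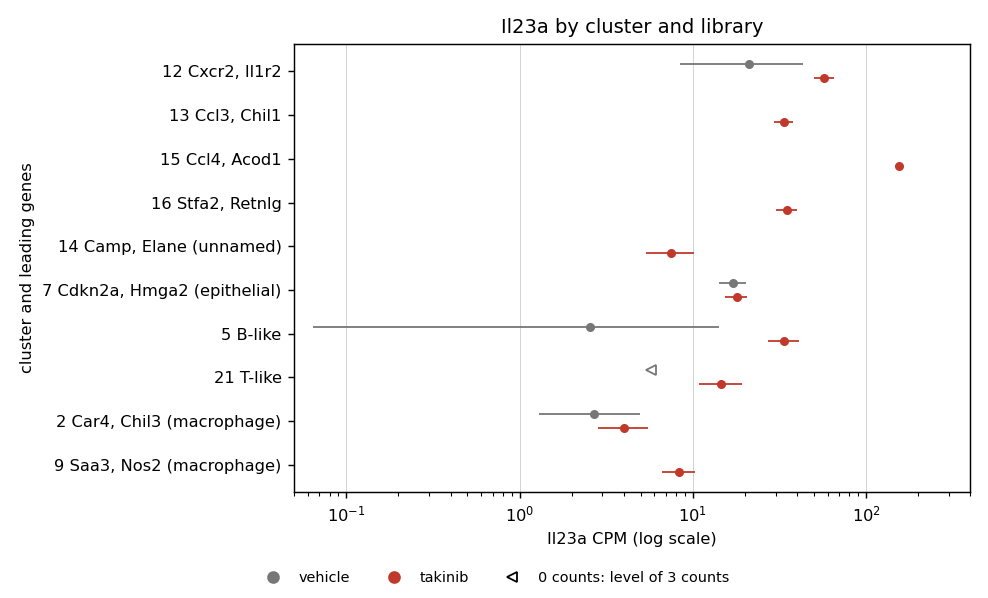
Il23a level (CPM, log scale) by cluster, vehicle in grey and takinib in red, with exact Poisson 95% intervals. Neutrophil-like cluster 15 is at 154 CPM in takinib, and epithelial-like cluster 7 is at 17 CPM in vehicle and 17.9 in takinib.

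Smaller Il23a levels in the other takinib classes lay beside neutrophil RNA. Macrophage-like cells were at 0.954 CPM in vehicle and 5.70 in takinib, a ratio of 5.98 [3.79, 9.95]. As a share of the level in takinib neutrophil-like cells, Il23a in takinib macrophage-like cells was 7.21%, beside 6.76% for the summed neutrophil genes S100a8 and S100a9. The corresponding shares were 42.3% beside 37.9% in B-like cells, 18.5% beside 14.1% in T-like cells, 32.4% beside 20.2% in endothelial-like cells and 8.88% beside 8.83% in fibroblast-like cells. Epithelial-like cells, at 16.8% beside 8.41%, had the gene in vehicle too, where S100a8 and S100a9 were at 0.282% of the vehicle neutrophil-like level. Plasma-like cells had 1.92% beside 8.16%. The part of neutrophil RNA in these levels was not tested. Dendritic-like cells, a usual source of IL-23, were 43 and 45 cells with 0 and 3 Il23a counts, too few for a ratio.

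The partner p40, Il12b, was seldom read in any cell. Dendritic-like cells had 15 vehicle and 3 takinib Il12b counts, macrophage-like cells 9 and 52 (0.429 and 1.10 CPM), and takinib neutrophil-like cells 10 in 4 of 11636 cells. Over all kept cells Il12b was read in 7 vehicle and 21 takinib cells. Il23a and Il12b were read together in 2 takinib cells and 0 vehicle cells. With so few Il12b cells, this overlap cannot show whether the same cells make both subunits. Il12a, the p35 subunit that pairs with p40 in IL-12 and with Ebi3 in IL-35, had 4 vehicle and 662 takinib counts in macrophage-like cells, 0.191 and 14.0 CPM (ratio 73.6). Most vehicle macrophage-like cells were in cluster 1, with 3654 vehicle and 372 takinib cells, whereas cluster 9, with Saa3, Arg1 and Nos2, held 1 and 1569, so macrophage-like ratios set different clusters side by side. Il12a had 0 and 613 counts in neutrophil-like cells, where takinib was at 22.7 CPM, at least 2.55-fold higher. Ebi3 was 68.0 and 169 CPM in neutrophil-like cells. Il1b and Il1a, which with IL-23 drive type 17 cells, are among 5 such cytokines listed. Of the 5, 0 were at least 2-fold higher in neutrophil-like cells, beside 5.67% of 12171 genes. In macrophage-like cells 2 were, beside 7.99% of 14114 genes. In both classes 0 were at least 2-fold lower, beside 39.9% and 9.59%. Il1b was 4982 CPM in vehicle neutrophil-like cells and 7164 in takinib (ratio 1.44), and 473 and 1434 CPM in macrophage-like cells (ratio 3.03). In takinib macrophage-like cells Il1b was at 20.02% of the neutrophil-like level, above the 6.76% of S100a8 and S100a9.

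Il17ra, the subunit shared by the IL-17 receptors, was read in every class of at least 50 cells, with its highest levels in blood cells. Neutrophil-like cells were at 166 CPM in vehicle and 108 in takinib, T-like cells at 68.7 and 82.6, B-like cells at 65.9 and 78.7, and macrophage-like cells at 38.7 and 55.1. Endothelial-like cells were at 26.1 and 38.4 CPM, fibroblast-like cells at 26.1 and 26.9, and epithelial-like cells at 16.1 and 18.3. Erythroid-like and plasma-like cells of takinib were at 31.0 and 22.3 CPM, and vehicle perivascular-like cells at 18.4. In takinib, neutrophil-like cells [104, 112] stood above T-like [73.2, 92.8] and B-like cells [68.7, 89.6], whose intervals overlap, and these above macrophage-like cells [53.0, 57.3]. The summed S100a8 and S100a9 were at 14.1%, 37.9% and 6.76% of the takinib neutrophil-like level in takinib T-like, B-like and macrophage-like cells. The part of neutrophil RNA in their Il17ra was not tested. In vehicle, neutrophil-like cells [125, 215] stood above the others, and T-like, B-like and macrophage-like cells came next. Nearly empty vehicle droplets were at 30.7 CPM, from 20 counts, so that levels of this size can hold free RNA. Over all kept cells the level was 31.6 and 60.4 CPM, a ratio of 1.91 [1.80, 2.03], with many more neutrophil-like cells in takinib.

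Within classes, the macrophage-like ratio was 1.42 [1.31, 1.54] and the neutrophil-like ratio 0.652 [0.501, 0.865], and neither held under every choice. When vehicle cells were limited to those with Xist and no Y-linked UMI, 543 of the 4849 macrophage-like cells remained and the ratio was 0.995. Macrophage-like cluster 0, of dividing cells, was at 52.6 and 51.6 CPM, cluster 2 at 51.8 and 57.6, and cluster 8, with Ccl8, Pf4 and Selenop, at 33.2 and 46.4, while cluster 1, with MHC class II genes, was at 34.6 and 53.6, a ratio of 1.55 [1.26, 1.90]. The 4 clusters led by Ly6c2 or Ccr2, genes of monocytes, held 743 takinib and 6 vehicle cells and were at 127 CPM in takinib; without them the ratio was 1.27 [1.17, 1.38]. In cluster 12, the neutrophil-like cluster with at least 50 cells of each library, Il17ra was 168 and 179 CPM, a ratio of 1.06 [0.809, 1.42], and the neutrophil-like ratio was 1.05 when the class was scaled to its median gene. The median gene of this class was at a log2 ratio of -0.69, the largest shift of the 7 classes compared; with that scaling the share of higher and lower genes went from 5.67% and 39.9% to 13% and 20.1%. In the other classes the median gene was at -0.18 in endothelial-like cells and at -0.15 in both epithelial-like and fibroblast-like ones, and within 0.1 of 0 in T-like, B-like and macrophage-like cells.

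Il17rc, the restricted subunit, was read in epithelial and stromal classes. Fibroblast-like cells were at 25.3 CPM in vehicle and 17.3 in takinib, epithelial-like cells at 21.9 and 15.8, and endothelial-like cells at 13.05 and 8.54, and vehicle perivascular-like and mesothelial-like cells were at 26.5 and 18.4. Blood cells had little of it: macrophage-like cells were at 1.05 and 0.466 CPM, neutrophil-like cells at 0 and 0.776, T-like cells at 3.82 and 1.46, and B-like cells had 0 counts in both libraries, which in takinib allows up to 0.241% of 1243 cells to have a UMI at this depth. The intervals of vehicle fibroblast-like [19.2, 32.6], perivascular-like [20.2, 34.2], epithelial-like [19.3, 24.8] and mesothelial-like cells [7.41, 38.0] overlap, so their order is not resolved. Nearly empty vehicle droplets were at 12.3 CPM, from 8 counts. The lower level over all kept cells, 10.4 and 3.85 CPM (ratio 0.371), went with the larger number of blood cells in takinib.

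The epithelial-like ratio of Il17rc was 0.722 [0.610, 0.856] and was not the same in the clusters of the class. The libraries also filled some of these clusters unevenly, such as cluster 33 with 293 vehicle and 19 takinib cells and cluster 41 with 3 and 194. Cluster 7, with 1064 vehicle and 814 takinib cells, was at 12.2 and 11.9 CPM, a ratio of 0.974 [0.733, 1.30], while cluster 20, with the goblet-cell genes Spink4 and Muc2, was at 68.1 and 17.8, a ratio of 0.262 [0.114, 0.534] from 54 and 9 counts. Il17ra in cluster 20 was 15.1 and 47.5 CPM, a ratio of 3.14 [1.51, 6.89], the opposite direction. With vehicle cells limited to those with Xist and no Y-linked UMI, the epithelial-like ratio was 0.883. The fibroblast-like ratio was 0.683 [0.467, 0.999], and in fibroblast-like cluster 18 the levels were 25.7 and 25.5 CPM. Of the other receptors, Il17re, the partner of IL-17RA for IL-17C, was 30.3 and 43.8 CPM in epithelial-like cells (ratio 1.44), and Il17rd, a modulator of the receptor, was 27.0 and 3.80 in fibroblast-like cells, a ratio of 0.141.

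Cells with UMIs of both subunits were found in the classes that carried Il17rc, which follows from needing an Il17rc UMI. The share expected if both genes were read independently was not computed. In vehicle they were 1.30% of epithelial-like, 1.18% of fibroblast-like, 1.03% of perivascular-like and 0.280% of endothelial-like cells, and 0.0825% of macrophage-like cells. In takinib they were 2.55% of epithelial-like, 3.17% of fibroblast-like, 1.94% of endothelial-like, 0.114% of macrophage-like and 0.0430% of neutrophil-like cells. Depth per cell was greater in takinib, with medians of 8789 against 5002 UMIs in epithelial-like and 7641 against 3148.5 in fibroblast-like cells, so the shares of the libraries are not compared. At 1000 UMIs per cell, the expected share with Il17rc was 2.36% in vehicle and 1.61% in takinib epithelial-like cells.

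**Figure D4:**
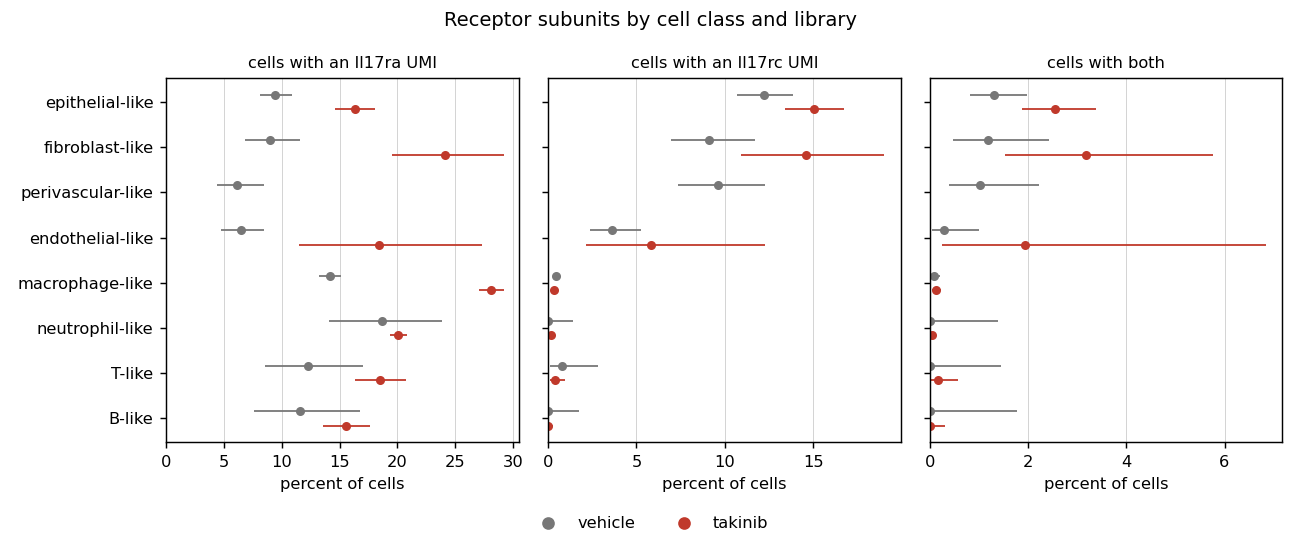
Percent of cells with a UMI of Il17ra, of Il17rc and of both, by class, vehicle in grey and takinib in red, with exact binomial 95% intervals; takinib cells were deeper in most classes, so shares show which classes carry a gene and not a difference between libraries. Il17ra is read in every class shown, and Il17rc and both together mainly in epithelial-like, fibroblast-like, perivascular-like and endothelial-like cells.

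Few signalling genes behind the receptor were past 2-fold in the receiving classes. Of 17 tested in epithelial-like cells, 1 was at least 2-fold higher, the transcription factor Cebpb (ratio 3.27), beside 8.36% of 14884 genes, and 1 at least 2-fold lower, the adaptor Traf2 (ratio 0.489), beside 10.3%; the median log2 ratio was -0.21, beside -0.15 over all genes. In fibroblast-like cells 3 of 17 were higher, beside 9.83% of 11735 genes: Nfkbiz, which encodes an IkappaB family member that IL-17 induces, from 39.2 to 151 CPM (ratio 3.86), Traf3ip2, from 9.58 to 24.9 (ratio 2.59), and Cebpb (ratio 2.32), and 0 were lower, beside 14.2%. These ratios are as counted and can hold neutrophil RNA. With a neutrophil-like profile subtracted, as described further below, the epithelial-like ratio of Cebpb was 1.37, under the 2-fold limit. The fibroblast-like ratio of Cebpb was then 1.57, also under it, and that of Nfkbiz was 2.27. Traf3ip2 was not tested after the subtraction. Macrophage-like cells had Traf3ip2 higher (1.48 and 4.01 CPM) and Cebpd lower (ratio 0.463), with 7.99% and 9.59% of 14114 genes past the same limits. Neutrophil-like cells had 1 of 17 higher, Nfkbiz (ratio 2.99), beside 5.67% of 12171 genes, and 4 lower, beside 39.9%. Map3k7, the kinase that takinib inhibits, was 36.7 and 24.9 CPM in epithelial-like cells (ratio 0.678), 40.5 and 26.9 in fibroblast-like cells (ratio 0.664), 22.1 and 25.1 in macrophage-like cells (ratio 1.14) and 38.4 and 21.5 in neutrophil-like cells; the transcript does not measure the kinase's activity.

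Of 26 genes known to be induced by IL-17 in receiving cells, 24 were in the tables, and many were higher in takinib both in the classes with Il17rc and in classes almost without it. In fibroblast-like cells 18 of 21 tested genes were at least 2-fold higher, beside 9.83% of 11735 genes. Lower by at least 2-fold was 1 (Pigr, the receptor that carries immunoglobulin A across epithelium, ratio 0.213), beside 14.2%. The median log2 ratio of the list in these cells was 2.64, beside -0.15 over all genes. The class lay in different clusters in the libraries: cluster 18 held 439 vehicle and 55 takinib cells, cluster 48 held 1 and 86, and cluster 49, led by genes that include Mmp3 and Cxcl5 and with a median of 23329 UMIs per cell, held 0 and 65, so these ratios do not compare the same cells. The neutrophil chemokine Cxcl5 was 10.5 and 829 CPM (ratio 79.3), its relative Cxcl1 14.8 and 310 (ratio 21), the granulocyte growth factor Csf3 0.871 and 35.4 (ratio 40.6), Il6 20.9 and 130 (ratio 6.23), and the protease Mmp3 47.5 and 373 (ratio 7.86). In epithelial-like cells 13 of 23 were higher, beside 8.36% of 14884 genes, with a median of 1.10, beside -0.15. Lower was 1 (Csf2, a growth factor of granulocytes and macrophages, 54.9 and 17.2 CPM, ratio 0.312), beside 10.3%. The epithelial-like class also lay partly in different clusters. Cluster 7 held 1064 vehicle and 814 takinib cells, but cluster 33 held 293 and 19 and cluster 41 held 3 and 194. The iron-binding Lcn2 was 215 and 2870 CPM (ratio 13.4), Cxcl5 33.2 and 225 (ratio 6.78), Saa3, an acute phase protein, had a ratio of 97.6, and Nfkbiz was 191 and 196 CPM (ratio 1.03).

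These counts lay beside a great deal of neutrophil RNA. S100a8, itself on the list, was 57.0 and 5283 CPM in epithelial-like cells and 47.5 and 5478 in fibroblast-like cells. After a neutrophil-like profile of the same library was taken off, scaled by the S100a8 and S100a9 level, 6 of 21 genes were at least 2-fold higher in epithelial-like cells (Cxcl2, Cxcl5, Lcn2, Csf3, Saa3 and Mmp3) and 2 lower, and 14 of 19 in fibroblast-like cells. Steap4, a metalloreductase, went from a ratio of 12.6 to 1.13 in epithelial-like cells, and Saa3 was at 25.7 there after the subtraction. Macrophage-like cluster 9, with Saa3 and Cxcl1 among its leading genes, held 1 vehicle and 1569 takinib cells. RNA of macrophage-like cells was not taken off, and its part in these ratios was not tested. With vehicle cells limited to those with Xist and no Y-linked UMI, the counts were 13 of 23 and 17 of 21. Neither these counts nor those after the subtraction have a share over all genes beside them, since none was computed. Classes with almost no Il17rc had the list higher as well. The counts were 13 of 21 in macrophage-like cells (beside 7.99% of 14114 genes) and 12 of 22 in neutrophil-like cells (beside 5.67% of 12171 genes). In T-like cells 13 of 20 were higher (beside 9.45% of 9864 genes), and 14 of 17 in B-like cells (beside 13.9% of 9064 genes). Endothelial-like cells, which did carry Il17rc (13.05 and 8.54 CPM), had 13 of 15 higher (beside 6.19% of 10134 genes). Many of these genes also respond to IL-1, TNF and bacterial products, so the list is not a reading of IL-17 alone. The plot of target genes shows each ratio before and after the subtraction.

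**Figure D5:**
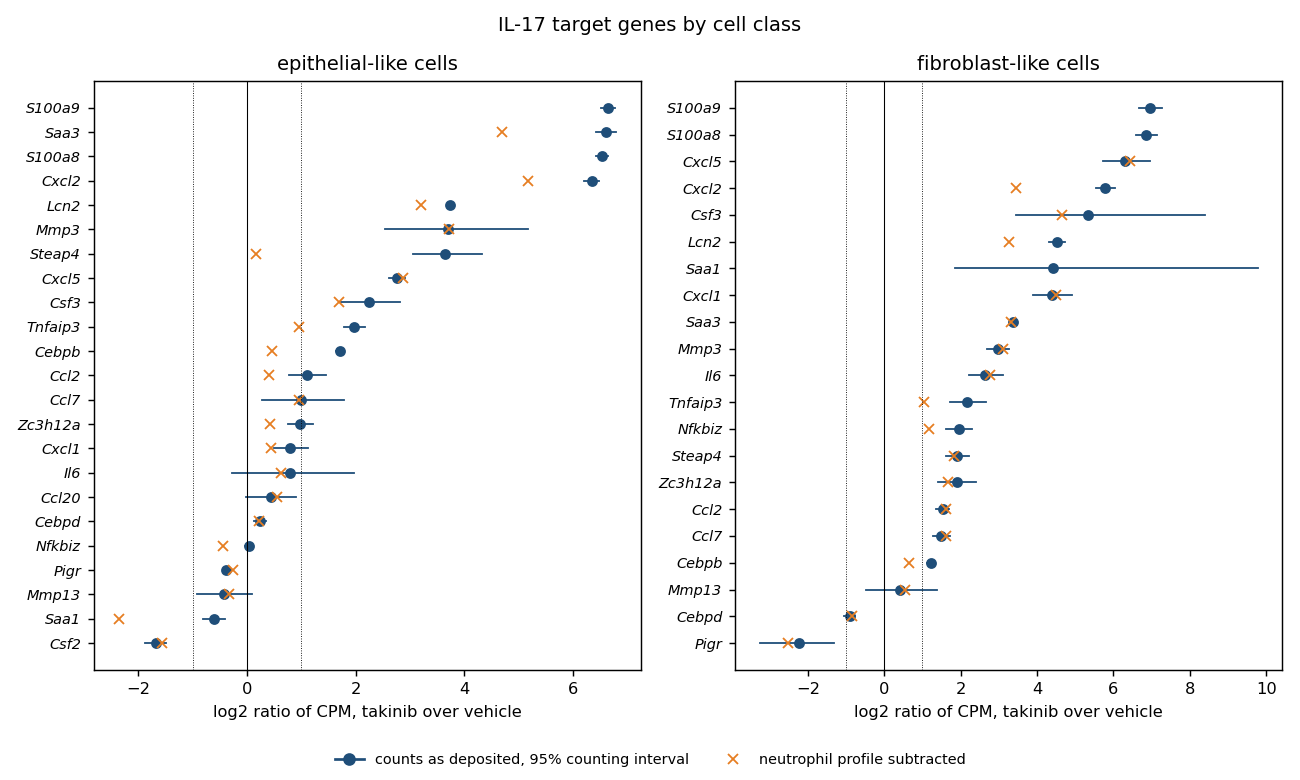
Takinib over vehicle CPM ratio (log scale) of each tested IL-17 target gene in epithelial-like and fibroblast-like cells, as counted and after subtraction of a neutrophil-like profile. Cxcl5 is at 79.3 in fibroblast-like and 6.78 in epithelial-like cells as counted, and most fibroblast-like genes stay above a ratio of 2 after the subtraction while Steap4 in epithelial-like cells is at 1.13.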

How the data were processed

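Single-cell libraries of digested pancreatic tumours were analysed from the matrices of raw UMI counts per gene and barcode that the authors deposited, per the file headers (Cell Ranger 4 for vehicle, 6.1.1 for takinib, both on mm10). The submitters' processing notes name Cell Ranger 2.1.1, bcl2fastq, STAR 2.0.4b, Subread and featureCounts 1.45, without saying which made which table. Depth was 80850334 UMIs over 704261 barcodes in vehicle and 139292875 over 34158 in takinib. The members and gene lists were chosen with earlier results of these data known.

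Barcodes with at least 1000 UMIs, 500 genes and at most 20% mitochondrial UMIs were kept, and doublets were scored with scanpy 1.11.5 (Scrublet) and removed. Its automatic threshold marked 3.18% of vehicle cells, which were taken out (314 cells), but 0.00373% of takinib cells, where the 6% with the highest scores were taken out instead (1607 cells). Counts were scaled to 10000 per cell and log-transformed. Leiden clusters (leidenalg 0.10.2, resolution 1) came from 2000 variable genes without the members, 30 principal components and 15 neighbours. A cluster took a class name from fixed markers, at least 3 detected. Clusters of at least 100 cells that got no name were clustered once more at 0.5, and all were named again. T-like cells were clustered among themselves at resolution 1. The naming rule, on which the step at 0.5 rests, and the T-like clustering were set after the data were seen. Classes of at least 50 cells are given and of at least 100 cells in each library compared, on summed counts. Intervals are 95% (Poisson for CPM, Clopper-Pearson for shares, conditional binomial for ratios; scipy 1.17.1). A count of 0 is set to a limit of 3 counts for a bound. Genes with at least 20 counts over both libraries were tested against a 2-fold ratio, a count with no test. The 6 members are named in every class; of each list, the genes with the 3 highest and 3 lowest ratios and the partners Map3k7, Traf3ip2, Il12b and Il12rb1 could be named, and others named were chosen after their values were seen. A further partner gene is not reported here. The 2-fold rule and the ratio interval were tried on counts simulated from the epithelial-like class, and the other steps were not simulated.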

Additional observations from a re-analysis of the deposited data

Results flagged for a closer look

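Il17ra differed in direction between classes: the takinib over vehicle ratio was 1.42 in macrophage-like cells and 0.652 in neutrophil-like cells, and this difference was not tested. With each library clustered on its own the neutrophil-like ratio was 1.24.

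Barcodes outside the kept cells, which no comparison used, held 4 of the 6 genes in takinib above the level of the vehicle library, and the other two below it. Il17a was at 5.32 CPM in takinib, from 104 counts, and at 0.0515 in vehicle, from 2. Il17f was at 0.511 CPM, from 10 counts, and at 0.0515 in vehicle, from 2. Il17ra was at 72.5 CPM against 31.7, and Il23a at 42.6 CPM against 2.65. Il17rc was lower in takinib, at 2.56 CPM against 8.85, and so was Il23r, at 0.204 CPM from 4 counts against 0.360 from 14. These barcodes held 19565898 UMIs in takinib and 38849796 in vehicle, and they include shallow cells, removed doublets and, in vehicle only, barcodes of under 500 UMIs.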

How the results depend on the processing

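No paired analysis was possible because each group had 1 library. Over the alternatives tried, some of them chosen after seeing the data, 81 of the recomputed values stayed near the reported one, 12 moved and 5 turned direction; the values here are log2 ratios of takinib over vehicle, and the cause was not tested. Il17a in T-like cells, at least 6.26, was at least 5.71 with 2000 UMIs and 1000 genes per cell, 4.13 with at most 10% mitochondrial UMIs, 2.96 with Xist-only vehicle cells (24 cells), 4.84 with each cell brought to 1000 UMIs and 5.86 without the 2 highest cells, and was 5.49 on the log2(CPM + 10) scale. The bound falls with fewer vehicle cells by construction. Il17ra in neutrophil-like cells, -0.62, was 2.14 with 2000 UMIs and 1000 genes (1 vehicle count in 10 cells), 0.31 with libraries clustered separately, 0.0730 with the median gene scaled, 0.0883 in cluster 12 alone, -0.11 with at most 10% mitochondrial UMIs and -1.43 with Xist-only vehicle cells. Il17ra in macrophage-like cells, 0.51, was -0.00772 with Xist-only vehicle cells and 0.73 at 1000 UMIs per cell. Il17rc in epithelial-like cells, -0.47, was -0.18 with Xist-only vehicle cells and -0.0379 in cluster 7 alone. Target genes higher in epithelial-like cells numbered 13, and 6 after neutrophil subtraction, where no share over all genes was computed. Il17f and Il23r in T-like cells had 0 vehicle counts throughout, and a bound under a ratio of 1 was given no value. They could therefore not turn direction, and their 11 and 10 values are among the 81. The same holds for Il17a wherever its vehicle count was 0. Il23a in neutrophil-like cells and Il17rc in fibroblast-like cells kept their direction wherever a value could be had. Il23a in dendritic-like cells had none, and Il17f, Il23r and neutrophil-like Il23a had none under some stricter filters, since the counts were too few. The 252 vehicle T-like and 263 neutrophil-like cells limit the depth, and 1 library a group leaves the spread between mice unknown.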

Other observations

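The genes whose levels were most like those of a member over 49 clusters by library, by Pearson correlation of log2(CPM + 10), are given as a description; the points share libraries and depth. For Il17a they were Trdv4 (r = 0.93), Trdc (0.91), Cd163l1 (0.89), Tcrg-C1 (0.86) and Gm2682 (0.86), and for Il17f Trdv4 was first (0.94). T-like cells formed a single cluster here, at 438 CPM Il17a in takinib, and the other classes were far lower. The values for Il17a and Il17f therefore rest mainly on that 1 point and are no separate evidence of the source cells. For Il17ra they were Rassf5 (0.94), Coro1a (0.92), Ptprc (0.91), Fmnl1 and Samhd1 (0.90). For Il17rc Adgra3 was first (0.92), followed by Adcy6, Trim2, Arhgap32 and Arpin. For Il23a they were Rabgef1 (0.89), the long RNA Mirt2 (0.88), Gm20406, Nfkbiz (0.86) and Gm10851. Il23r had too few counts for this comparison.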
